A study of Homo sapiens with 4 samples.

Results

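The Sonic hedgehog pathway, GLI and ZIC genes described here are SHH, PTCH1, SMO, GLI1, GLI2, GLI3, ZIC1, ZIC2, ZIC4 and ZIC5. The summit of a peak is its position of highest signal, and that of a reproducible site is the position given for it. A site was assigned to a gene when its summit lay within the gene body (GENCODE 44 on GRCh37) or 250 kb on either side. By this rule 16 of the 5169 reproducible MEIS sites of the series lay at these genes, as did 108 of the 36796 peaks of replicate 1 and 150 of the 47449 peaks of replicate 2. ZIC1 and ZIC4 overlap on chromosome 3 and ZIC2 and ZIC5 are neighbours on chromosome 13, so that the 10 genes form 8 loci and the paired genes share sites.

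The study mapped chromatin bound by the TALE homeodomain proteins MEIS1 and MEIS2 by ChIP-seq in commercial human neural stem cells (hNSC), for which the labels give no edit or treatment, in 2 ChIP replicates and 2 Input samples. A mixture of 2 antibodies, against MEISa and MEIS1, was used for precipitation, so a peak does not tell which of the paralogs was bound. The Input samples served only as the control for peak calling and gave no list analysed here, so no groups were compared. The study's methods give the source as 2 hNSC batches handled side by side, without saying what a batch is, and the labels name a single commercial product.

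Each peak carries a −log10 p and a fold enrichment over Input. The list of reproducible sites was made by the irreproducible discovery rate (IDR), which keeps peaks whose rank agrees between replicates, and it gives each site the lower of both replicate −log10 p values at 16 of the 16 sites. A −log10 p rises with sequencing depth, which is unknown here because the deposited lists hold no read counts. Fold enrichment was higher in replicate 2 at 97.4% of all 5169 sites and −log10 p at 64.2%. Ratios between the replicates are therefore given as a description of the lists and are not read as differences in binding. Peak lists hold no expression values, and the hNSC label could not be checked against marker genes.

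Hedgehog ligands bind the receptor Patched, which otherwise holds the transmembrane protein Smoothened inactive. Released Smoothened signals at the primary cilium to the zinc finger factors GLI1, GLI2 and GLI3, which activate or repress target genes. In the developing neural tube this pathway sets ventral identities, while ZIC proteins, zinc finger factors related to GLI, mark mainly dorsal and midline territories and act in forebrain, cerebellar and neural crest development. MEIS proteins bind the hexamer TGACAG, alone or, with a PBX partner, in a composite in which a PBX core comes directly before TGACAG.

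In the 500 bp around the summit, TGACAG was present at 11 of the 16 sites, and at 58.3% of all sites. The stretches given here surround the string at each gene's strongest site that holds it, and at all 3 sites with the composite, which 7.54% of all sites hold. They are GRCh37 reference sequence, written 5′ to 3′ on the strand that reads TGACAG, with the string or composite in capitals. The stretches lie at chr9:98078730-98078789 (+) for PTCH1 site 3, chr7:128934903-128934962 (−) for SMO site 1, chr12:58087615-58087644 (+) for GLI1 site 1, chr2:121651491-121651550 (+) for GLI2 site 1, chr7:42108225-42108284 (+) for GLI3 site 2, chr3:147105924-147105953 (+) for ZIC1-ZIC4 site 2, chr13:100375307-100375366 (+) for ZIC2-ZIC5 site 1 and chr13:100616302-100616331 (+) for ZIC2-ZIC5 site 2. Sites are numbered within a locus by falling −log10 p. At ZIC2-ZIC5 site 1 the summit in the list lay between replicate summits 1672 bp apart, so the stretch shown surrounds neither of them.
PTCH1 site 3: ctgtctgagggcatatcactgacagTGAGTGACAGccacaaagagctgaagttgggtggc
SMO site 1: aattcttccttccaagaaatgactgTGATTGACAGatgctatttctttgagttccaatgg
GLI1 site 1: atgagatgcgcaTGACAGctgggcgaagac
GLI2 site 1: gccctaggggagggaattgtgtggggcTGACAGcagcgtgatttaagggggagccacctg
GLI3 site 2: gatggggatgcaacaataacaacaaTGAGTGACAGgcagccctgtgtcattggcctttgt
ZIC1-ZIC4 site 2: tggagagcgcagTGACAGtattaaatggcg
ZIC2-ZIC5 site 1: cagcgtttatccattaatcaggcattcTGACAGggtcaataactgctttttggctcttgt
ZIC2-ZIC5 site 2: tttatcctagctTGACAGctctggcaaagg
The centre of the string lay 13.5 bp from the summit at SMO site 1, 1.5 bp at GLI1 site 1 and 3.5 bp at GLI3 site 2. It lay 0.5 bp from the summit at PTCH1 site 3, where a second TGACAG starts 10 bp before it, and 117.5 bp away at GLI2 site 1.

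MEIS sites were found at 9 of the 10 genes, all but SHH, whereas 47.5% of the 20162 protein-coding genes had a site under the same rule. PTCH1 and GLI3 had 4 sites each, ZIC1 and ZIC4 the same 3, ZIC5 2, and SMO, GLI1, GLI2 and ZIC2 1 each. The ZIC2 site is also counted for ZIC5. Since a long gene has a larger window, each gene was set beside the 200 protein-coding genes closest to it in body length. PTCH1 stood at the 97.5th percentile of its 200 genes (median 0 sites, 95th percentile 3) and ZIC4 at the 97th (median 0, 95th percentile 2). ZIC1 was at the 92nd, GLI3 at the 90th and ZIC5 at the 89th percentile. ZIC2, GLI1, SMO and GLI2 lay between 47.25 and 71.5, and SHH, with no site, at 28.75. Thus 2 of the 10 genes lay above the 95th percentile in this window, and the remaining 8 fell within the range of genes of like length. From the 5169 strongest peaks of replicate 2 alone, without replicate 1, ZIC1 and ZIC4 would have 5 sites and GLI3 3. From those of replicate 1 alone, GLI3 would have 6, ZIC1, ZIC4, GLI1 and GLI2 2 each, ZIC5 1 and ZIC2 none. PTCH1 would have 3 from either replicate alone, and 3 at an IDR of 0.001 or less, where ZIC4 would have 2. These lower numbers, 3 for PTCH1 and 2 for ZIC4, equal the 95th percentiles of their genes of like length in the full list.

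**Figure D1:**
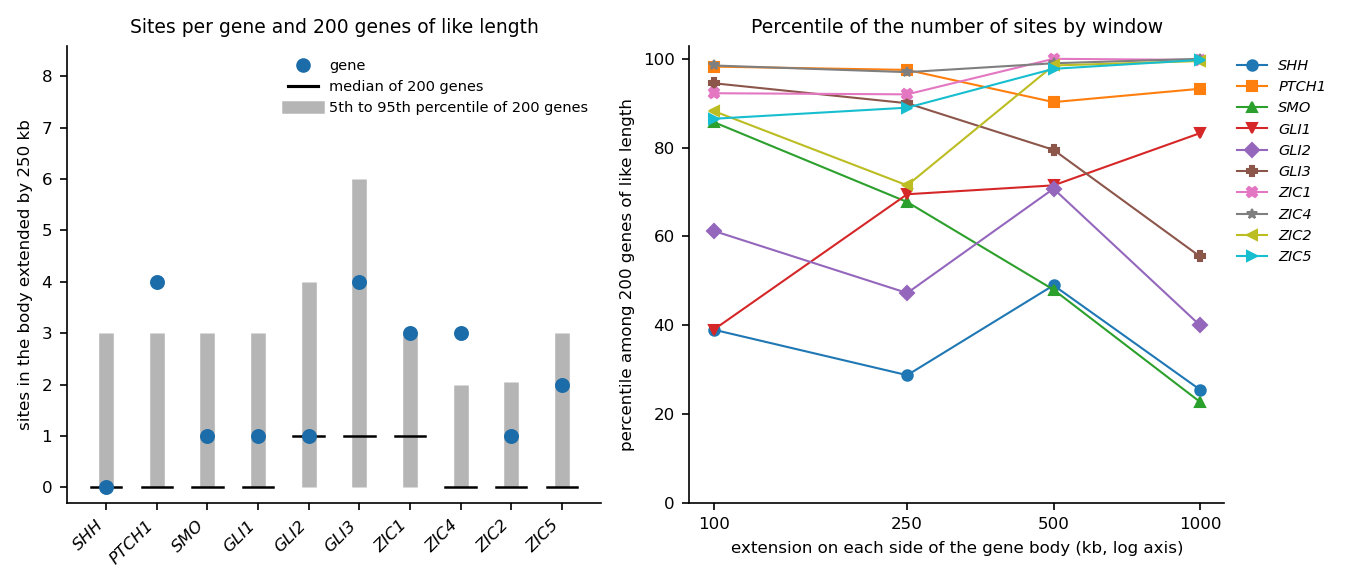
Number of reproducible MEIS sites per gene (left, window of 250 kb; blue points) beside the median (black line) and the 5th to 95th percentile (grey bar) of 200 protein-coding genes of like body length, and percentile of each gene by window (right, log x axis in kb). PTCH1 and ZIC4 lie above the grey bars, SHH has no site, and the 4 ZIC genes, which share sites within each pair, reach percentiles from 97.75 to 100 once the window is 500 kb or wider.

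The sites were of middling strength for the series. Their median −log10 p was 32.2 (range 13.3 to 98.7) and that of all 5169 sites 29.3. The 2 strongest, both at ZIC1-ZIC4, ranked 735 and 775, and the first was stronger than 85.8% of all sites. An IDR of 0.001 or less was reached by 11 of the 16 sites, compared with 60.4% of all sites. None of the 16 lay among the upper 5% of sites, which begins at 226 in −log10 p.

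Of the 16 sites, 5 lay in an intron of one of the 10 genes, 3 in an intron of another gene, 2 in a 3′ UTR of a ZIC gene and 6 outside every canonical protein-coding transcript. The nearest canonical transcription start site (TSS) belonged to one of the 10 genes at 11 sites. At the other 5 it belonged to FANCC (2 sites), AHCYL2, OS9 or CLYBL. A single site, at PTCH1, lay within 5 kb of the canonical TSS of one of the genes, and 8 lay more than 100 kb from all of them. Counting the canonical TSSs of all protein-coding genes, 3 of the 16 lay within 5 kb of one, against 8.43% of all sites. Introns held 8 of the 16 (all sites 42.0%), and the 6 outside canonical transcripts are 37.5% (all sites 55.9%).

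SHH, the Hedgehog ligand that patterns the ventral neural tube and limb, had the sparsest locus. Its window (body chr7:155592674-155605157) held 3 peaks in replicate 1 and 5 in replicate 2, where genes of like length had medians of 6 and 8. Only 1 peak was shared by the replicates, at chr7:155353170-155353699, 251.7 kb downstream of the SHH TSS in intron 3 of ENSG00000283128, which reached a −log10 p of 11.9 (replicate 1) and 17.8 (replicate 2). It held 1 TGACAG in the 500 bp around its replicate 1 summit and was not in the reproducible list. Around the SHH promoter no peak was called, the nearest lying 97.1 kb away in replicate 1 and 73.5 kb away in replicate 2. The nearest reproducible site was 302.8 kb downstream of the TSS, at chr7:155301289-155303309 in intron 2 of CNPY1, with −log10 p of 16.5 and 15.6.

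PTCH1, the Hedgehog receptor and itself a transcriptional target of the pathway, had sites on both sides of its TSS and inside the gene. Site 1 (chr9:98257515-98258976) lay in PTCH1 intron 2, 13.05 kb downstream of the canonical TSS, where −log10 p reached 36.6 (replicate 1) and 33.3 (replicate 2) at fold enrichments of 6.66 and 10.9. Site 4 (chr9:98273592-98274582) lay 2.4 kb upstream of that TSS, within the gene body as other PTCH1 transcripts define it, and was weaker, at 16.7 and 18.6. Both held no TGACAG in the 500 bp around the summit.

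The other PTCH1 sites lay towards FANCC, a Fanconi anaemia gene that is 1 of the 2 protein-coding genes in the window. Site 2 (chr9:98172200-98173160) was intergenic, 98.9 kb downstream of the PTCH1 TSS. The −log10 p values were 32.3 for replicate 1 but 101 for replicate 2, a 3.14-fold difference, although both summits fell on the same base. Site 3 (chr9:98078412-98079502) lay in FANCC intron 1, 1.23 kb from the canonical FANCC TSS and 192.8 kb from that of PTCH1, with 25.3 and 30.9. Its summit fell on the TGACAG and the PBX-MEIS composite shown above.

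SMO, the signal transducer that PTCH1 holds in check, had 1 site, and it lay in another gene. The site (chr7:128934392-128935368) was in intron 1 of AHCYL2, 106 kb downstream of the SMO TSS and 70.0 kb from that of AHCYL2. It reached a −log10 p of 45.2 (replicate 1) and 76.9 (replicate 2), with fold enrichments of 6.27 and 16.5. The composite there was 15.5 bp from the summit, on the minus strand.

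GLI1, the GLI factor that mainly activates and is induced by the pathway, had 1 site, far from the gene. It lay at chr12:58086984-58087987, 234 kb downstream of the GLI1 TSS and 0.287 kb from the canonical TSS of OS9, which encodes a lectin of the endoplasmic reticulum. The values of the replicates were close, at 27.2 and 29.8. The GLI1 window held 23 protein-coding genes, the most of the 10 windows, and within 100 kb of GLI1 there was no site.

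GLI2, the main activator of Hedgehog targets, had 1 site at chr2:121650091-121652330 in GLI2 intron 2, 158 kb downstream of its TSS. It reached 32.1 in −log10 p for replicate 1 and 50.9 for replicate 2. In its long body, 257 kb, 1 site equals the median of the 200 genes of like length.

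GLI3, which is processed into the main repressor of the pathway, was the only protein-coding gene in its window and had 4 sites. Site 1 (chr7:42354704-42355761) was intergenic, 78.3 kb upstream of the canonical GLI3 TSS, with −log10 p of 52.8 and 65.2 and summits 2 bp apart. Site 2 (chr7:42107783-42109565) lay in intron 4 with 49.6 and 56.2, and site 3 (chr7:42126888-42127818) in intron 3 with 33.6 and 51.3. The latter 2 sites were 19.1 kb apart. Site 4 (chr7:42194027-42195107), in intron 2, was the only one of the 16 that was more than 1.5 times higher in replicate 1, at 33.3 against 17.3.

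The GLI3 sites differed in the strings they held in the 500 bp around the summit. Site 2 held the composite 1.5 bp from the summit, and site 3 held 2 copies of TGACAG that start 9 bp apart. Site 4 held 1 copy, 20.5 bp from the summit. Site 1, the strongest of the 4, held none, but a TAATTA, a LIM homeodomain core sequence, lay 11.5 bp from its summit.

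The ZIC1-ZIC4 locus held the strongest sites of the set. ZIC1 and ZIC4 are divergent neighbours that act together in cerebellar development. Site 1 (chr3:147076709-147079963) was an intergenic region of 3255 bp, 46.3 kb downstream of the ZIC4 TSS and 49.2 kb upstream of that of ZIC1. It reached 98.7 in −log10 p for replicate 1 and 143 for replicate 2, with fold enrichments of 13.1 and 26.5, ranking 735 among the 5169 sites. No TGACAG was found in the 500 bp around its summit.

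Site 2 (chr3:147104744-147106631) lay in the 3′ UTR of ZIC4, in exon 5 of its canonical transcript, with 93.1 and 99.4. It was 28.0 kb from site 1, and both replicate summits fell within 3 bp. Site 3 (chr3:146936540-146937564), 187 kb downstream of ZIC4, was the least even of the 16 between replicates, at 13.3 and 47.4, and ranked 5057.

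The ZIC2-ZIC5 locus had weaker sites. ZIC2 is a holoprosencephaly gene, and ZIC5 is its divergent neighbour. Site 2 (chr13:100615641-100616773) lay in the 3′ UTR of ZIC5, in exon 2, 7.69 kb downstream of the ZIC5 TSS and 17.7 kb upstream of the ZIC2 TSS, with −log10 p of 15.0 and 24.7. Site 1 (chr13:100374090-100376662) lay in intron 1 of CLYBL, 248.6 kb from the ZIC5 TSS, with 23.2 and 30.1. It covers 1 peak of replicate 1 and 2 peaks of replicate 2. The stronger peak of replicate 2, with 30.1, had its summit 1672 bp from that of replicate 1. The weaker, with 25.4, had its summit at −259.488 kb from the ZIC2 TSS, next to that of replicate 1 at −259.489 kb. At the other 15 sites the summits of the strongest peaks lay within 100 bp of each other. The summit of site 1 in the list lay between the distant summits, so its 500 bp window covers neither.

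Thus each ZIC pair had a site within the 3′ UTR of the gene of the pair on the minus strand. The ZIC4 site was the stronger in both replicates.

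**Figure D2:**
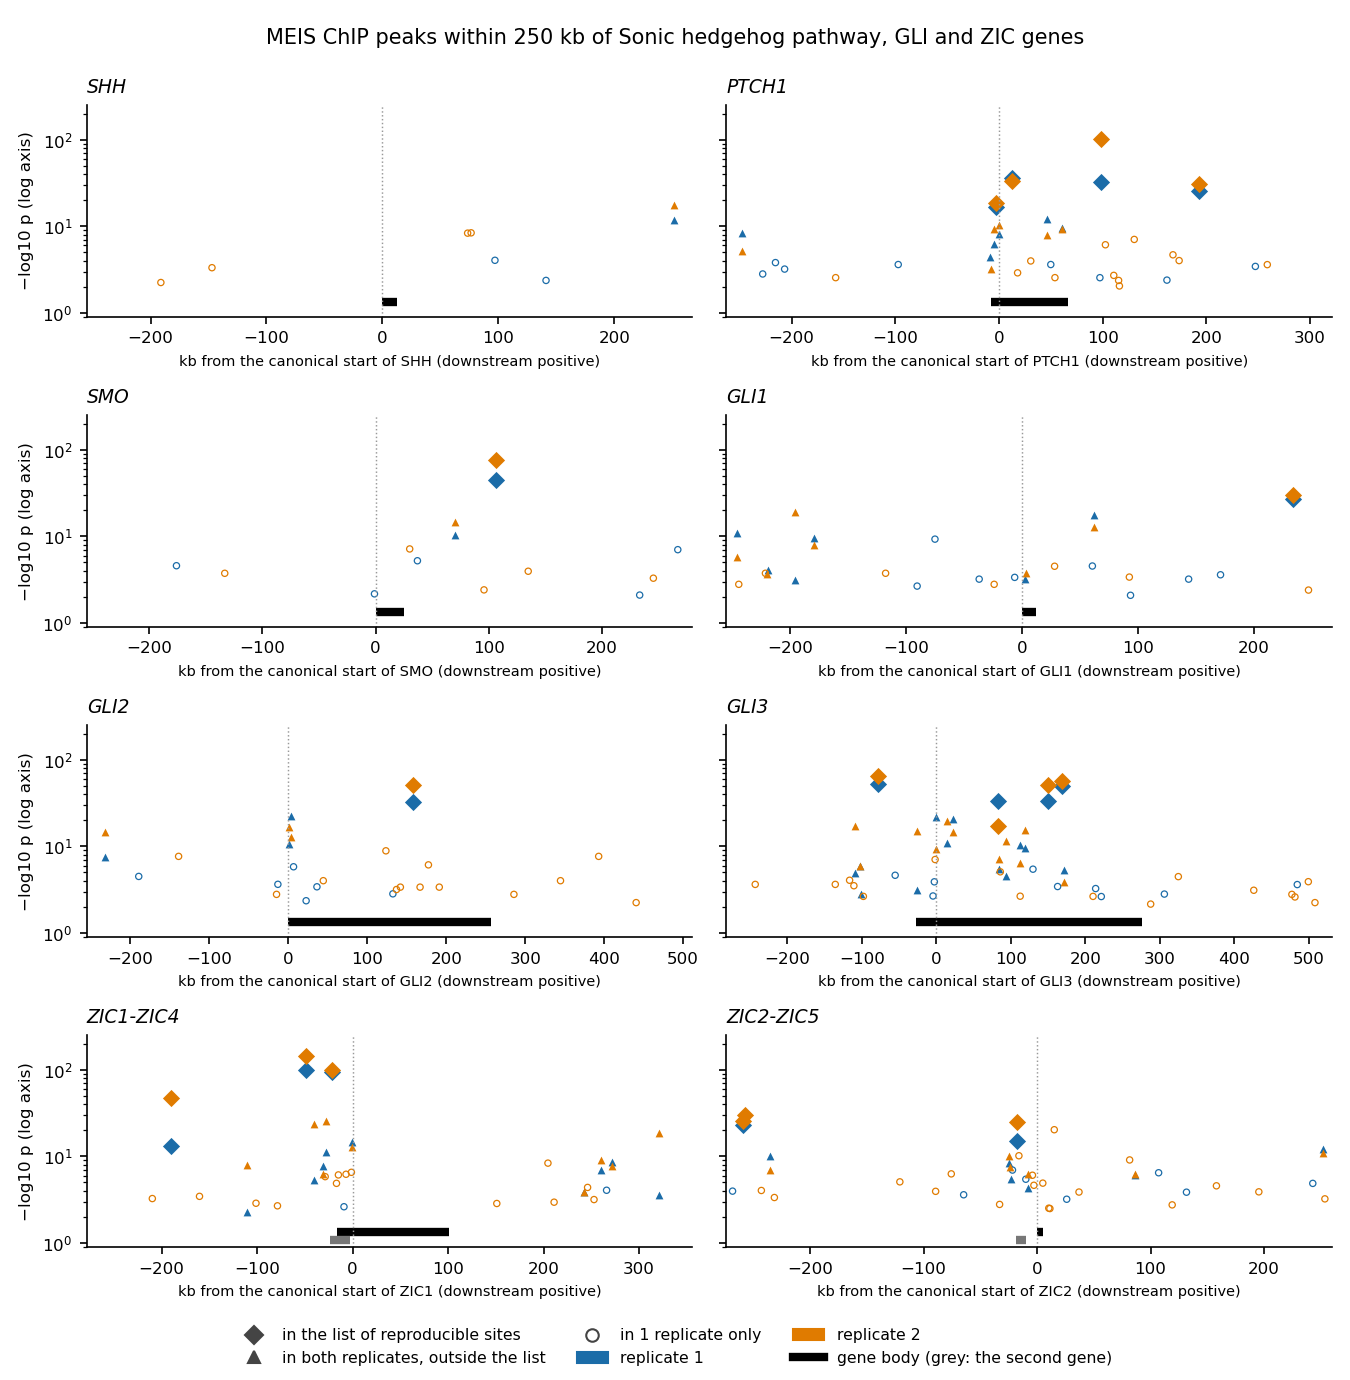
Peaks at the 8 loci by distance in kb from the canonical TSS (downstream positive; for paired genes, from ZIC1 and ZIC2) and −log10 p on a log axis, for replicate 1 (blue) and replicate 2 (orange). Diamonds are peaks in the list of reproducible sites, triangles peaks in both replicates but not in the list, and open circles peaks of 1 replicate; black and grey bars mark gene bodies. GLI3 and PTCH1 have diamonds inside and outside the gene, ZIC1-ZIC4 has the highest, and SHH has none.

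Between replicates, −log10 p was higher in replicate 2 at 14 of the 16 sites and fold enrichment at 15. The exceptions in −log10 p were PTCH1 site 1 and GLI3 site 4, of which the latter was also lower in fold. At 9 sites both values lay within 1.5 times of each other, and at 2 sites, PTCH1 site 2 and ZIC1-ZIC4 site 3, replicate 2 was more than 3 times higher. The median ratio of replicate 2 to replicate 1 was 1.3 at the 16 sites and 1.2 over all sites.

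**Figure D3:**
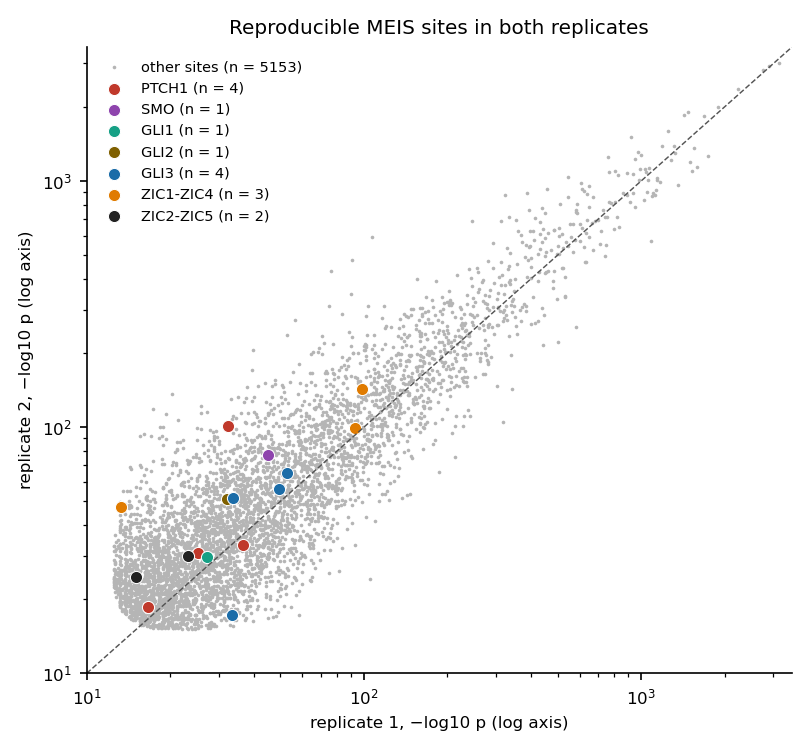
−log10 p of all reproducible sites in replicate 1 (x) and replicate 2 (y), both on log axes, with the sites at the Hedgehog pathway, GLI and ZIC loci coloured and the line of equal values dashed. Of the 16 coloured sites 14 lie above the line; 2 ZIC1-ZIC4 sites are the highest in replicate 1, at 93.1 and 98.7.

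Below the reproducible list lay a larger layer of weaker peaks. Of the 108 peaks of replicate 1 at these genes, 60 (55.6%; 95% Wilson interval 46.2 to 64.6) overlapped a peak of replicate 2, and over all peaks of replicate 1 the share was 49%. Of the 150 peaks of replicate 2, 60 (40%) overlapped a peak of replicate 1, compared with 38% of all. The share of replicate 1 peaks was 83.9% (of 56) when both replicates were restricted to a −log10 p of 5 or more, 73.6% (of 72) at a q of 0.05 or less, and 44.4% when summits had to lie within 100 bp. The list itself took in 16 peaks of replicate 1 (14.8%; all peaks 14.1%) and 17 of replicate 2 (11.3%; all peaks 10.9%).

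In 44 replicate 1 peaks the overlap with replicate 2 fell outside the list. The lower −log10 p of each such pair ranged from 2.29 to 14.8, with a median of 6.39. GLI3 had 12 of these, ZIC1-ZIC4 9, PTCH1, GLI1 and ZIC2-ZIC5 6 each, GLI2 3, and SMO and SHH 1 each.

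The listed site nearest to any of the 10 canonical TSSs was PTCH1 site 4, 2.4 kb away, and some of these weaker peaks lay closer. At PTCH1 a shared peak had its summit 0.083 kb upstream of the canonical TSS in replicate 1 and 0.09 kb upstream in replicate 2, with −log10 p of 8.13 and 10.2. At GLI3 the summits lay 0.183 and 0.142 kb upstream, with 21.9 and 9.32. At ZIC1 they lay 0.234 and 0.336 kb upstream, with 14.5 and 12.9. These were the only 3 shared peaks within 0.5 kb of the genes' canonical TSSs.

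GLI2 had shared peaks somewhat further into its first intron, 1.17 kb downstream of the TSS with 10.5 and 16.8, and 3.88 kb downstream with 22.4 and 12.7. At GLI1 a weak shared peak lay in intron 1, with 3.20 and 3.72. At SMO a peak 0.933 kb upstream was called in replicate 1 only, with 2.17. ZIC5 had a peak 0.1 kb from its TSS in replicate 1 only, with 5.45, and at ZIC2 no peak came closer than 2.79 kb in either replicate. Thus 3 of the 10 canonical TSSs had a peak of both replicates within 0.5 kb, as did 6.56% of the 19881 canonical TSSs of protein-coding genes.

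The ZIC loci had more peaks in replicate 2 than most genes of like length. ZIC1-ZIC4 had 14 peaks in replicate 1 and 26 in replicate 2, and ZIC2-ZIC5 had 16 and 28. In replicate 2 the 4 ZIC genes stood at percentiles from 99 to 100 of genes of like length, and in replicate 1 from 71.25 to 92. The genes of a pair share most of their peaks, so their percentiles are not separate observations. At ZIC1-ZIC4 only 2 of the 14 peaks of replicate 1 lacked a partner in replicate 2, while 14 of the 26 peaks of replicate 2 were found in that replicate only. GLI3 (25 and 31 peaks, percentiles 96.5 and 97) and PTCH1 (18 and 22, percentiles 97 and 98) were high in both replicates. SMO, with 7 and 7, was at 47.5 and 38.5.

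The strongest peak of a single replicate at any of the loci was found at ZIC2-ZIC5 in replicate 2, with a −log10 p of 20.3. In the same replicate site 2 of this locus had 24.7.

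With wider windows the ZIC genes gained sites and GLI3 and SMO did not. With 500 kb on each side ZIC1 had 9 sites, and none of its 200 genes of like length had as many (95th percentile 5). ZIC4, ZIC2 and ZIC5 had 6 each, at percentiles of 99, 98.5 and 97.75. With 1 Mb ZIC1 and ZIC4 had 15 sites and ZIC2 and ZIC5 12. GLI3 kept its 4 sites at 100 kb, 500 kb and 1 Mb, so that its percentile went from 94.5 to 55.5, and SMO kept its 1 site. PTCH1 had 3 sites at 100 kb, 4 at 500 kb and 8 at 1 Mb, at percentiles of 98.25, 90.25 and 93.25.

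Of the 33 sites that the 1 Mb window added, 12 were at ZIC1-ZIC4 and 10 at ZIC2-ZIC5. At 6 of the ZIC1-ZIC4 sites the nearest canonical TSS was still that of ZIC1 or ZIC4. The strongest of these lay 521 kb downstream of ZIC1, at chr3:147647811-147648877, with −log10 p of 183 and 391. The strongest added site at ZIC2-ZIC5, chr13:101162465-101163625 in intron 21 of PCCA, 529 kb downstream of ZIC2, had 423 and 504 and ranked 125 in the series. These distant sites were stronger than any within 250 kb of their gene pair. The canonical TSS nearest to the chromosome 13 site was that of GGACT, and peak positions alone assign none of these sites to a gene.

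The PBX-MEIS composite was found at 3 of the 16 sites, at PTCH1 site 3, SMO site 1 and GLI3 site 2 (18.8%; 95% Wilson interval 6.59 to 43.0), and at 7.54% of all sites and 0.839% of the 5671062 windows of 500 bp into which the genome was divided. TGACAG itself was found at 68.8% of the 16 sites (interval 44.4 to 85.8), 58.3% of all sites and 27.8% of genome windows. Strings were searched on both strands, and every composite contains TGACAG. The nearest TGACAG lay within 50 bp of the summit at 9 of the 11 sites that held one, and at 67.8% of such sites in the whole list. Of the 9, ZIC2-ZIC5 site 1 is measured from a list summit that lay between replicate summits 1672 bp apart. In the narrower window of 100 bp the share was 50% at the 16 sites and 39.0% over all sites. With 16 sites these intervals are wide, and the share of TGACAG in the whole list lies inside that of the genes.

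Binding strings of the genes' own products were absent from these windows. The GLI string GACCACCCA was found at 0 of the 16 sites (interval 0 to 19.4%) and at 0.484% of all sites and 0.284% of genome windows. The ZIC string CCTGCTG was found at 0 of the 16 sites (interval 0 to 19.4%), compared with 19.7% of all sites and 9.15% of genome windows. The share of all sites lies just above that interval, and the difference was not tested. No match means only that these letters are not in the 500 bp windows.

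Among strings of other factors, the SOX string CATTGT was at 7 of the 16 sites (43.8%; all sites 39.9%, genome 27.8%), including all 4 GLI3 sites. The TEAD string GGAATG was at 2 (interval 3.50 to 36.0%; all sites 38.2%, genome 24.5%), PTCH1 site 2 and ZIC1-ZIC4 site 1. As for the ZIC string, the share of all sites lies above the interval, and the difference was not tested. TAATTA, which reads the same on both strands, was at 3 (18.8%; all sites 18.2%, genome 19.9%). All 5 sites without TGACAG held at least 1 of these 3 strings, as did 72.8% of the 2157 such sites in the series.

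**Figure D4:**
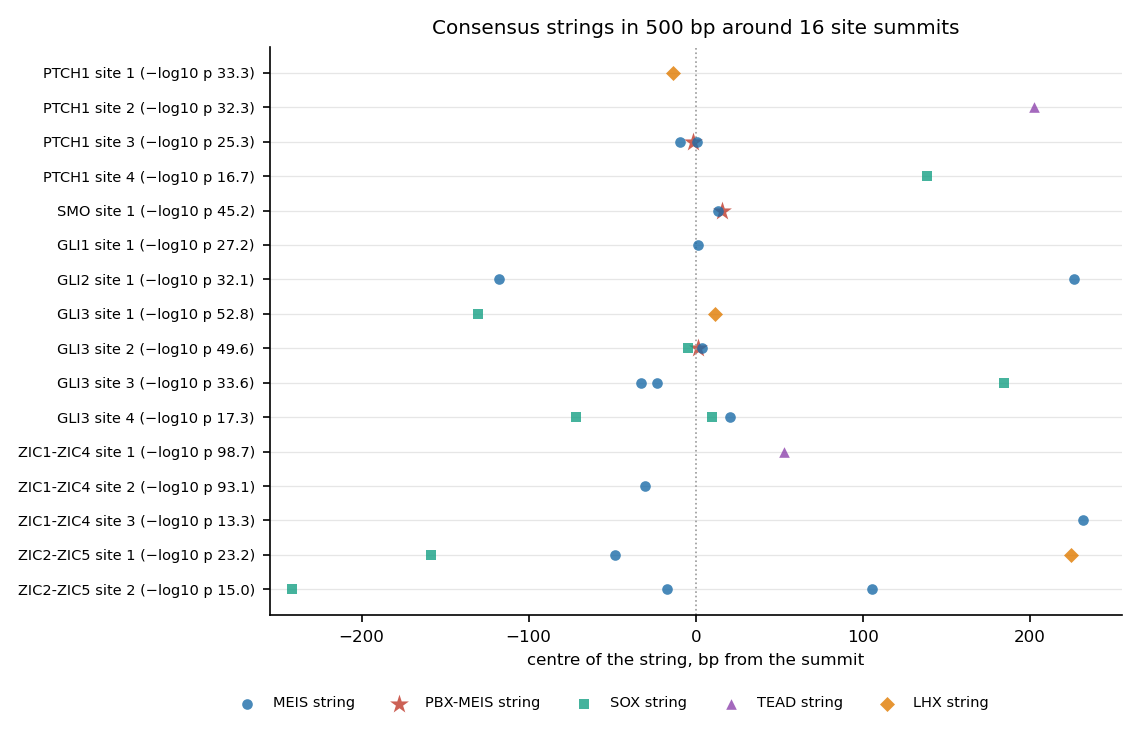
Position of consensus strings in bp from the summit (x) at each of the 16 sites (rows, with the −log10 p of the list): TGACAG (MEIS, circles), the PBX-MEIS composite (stars), CATTGT (SOX, squares), GGAATG (TEAD, triangles) and TAATTA (LHX, diamonds). The 3 composites lie within 15.5 bp of the summit, and 9 of the 11 sites with TGACAG have a copy within 50 bp. For ZIC2-ZIC5 site 1 the summit in the list lies between replicate summits 1672 bp apart.

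The share of peaks with TGACAG was also counted by class. Of the replicate 1 peaks at these genes, TGACAG was in 11 of 16 in the list, with 58.5% over all replicate 1 peaks of that class. It was in 24 of 44 shared outside the list (54.5%, with 51.3% over all) and 12 of 48 in that replicate only (25%, interval 14.9 to 38.8). Over all replicate 1 peaks the last class stood at 38.5%, within that interval. In replicate 2 the peaks of that replicate only held it in 37 of 90 (41.1%), with 41.4% over all.

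Other genes of the pathway were taken from a list of 33 Hedgehog ligands, receptors, relay components and targets, of which 23 had a site within 250 kb (all genes 47.5%) and 10 had none. By role, 4 of 5 genes of ligands and their release had a site, 5 of 6 of reception, 6 of 12 of relay and GLI processing, and 8 of 10 targets and patterning genes. The median was 1 site per gene, and 20 of the 33 had more sites than the median of their 200 genes of like length. That median was 0 or 1, and where it was 0 any gene with a site lay above it. This count thus largely repeats that of genes with a site, and its share over all genes was not counted. GAS1, a coreceptor, and IHH, the third ligand with DHH and SHH, were among those with none.

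HHIP, a membrane protein that binds and sequesters Hedgehog ligands, had the most sites of the list, 4, at the 97th percentile of its genes of like length. Its strongest site lay 302 kb downstream of its TSS, in an intron of ENSG00000285713. It reached 88.4 (replicate 1) and 243 (replicate 2) in −log10 p. SPOP, an adaptor for GLI degradation, had 3, the strongest with 484 and 632, 240 kb downstream of its TSS and nearest to PHB1. OLIG2, a transcription factor of ventral progenitors and oligodendrocytes, had 3, at the 98th percentile, the strongest with 281 and 471 and nearest to OLIG1. CCND2, a D-type cyclin, had 3, the strongest with 33.9 and 78.4 and nearest to FGF6.

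Next by this order was LRP2, an endocytic receptor that takes up SHH, with 2 sites, of which the stronger lay in LRP2 intron 9 with 385 and 295. The strongest sites at SPOP, OLIG2 and LRP2 were thus above any site within 250 kb of the 10 genes. For 20 of the 23 listed genes with a site, the strongest lay more than 20 kb from the canonical TSS of that gene.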

How the data were processed

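MEIS1/2 ChIP-seq of hNSC was analysed in 2 ChIP replicates. Per the labels and series design, the authors trimmed 36 bp paired-end reads with cutadapt 1.16, mapped them to GRCh37 (hg19) with Bowtie2 2.3.0 and SAMtools 1.2 (mapping quality of at least 30), removed duplicates with Picard 2.15.0, called peaks per replicate against Input with MACS2 (p 0.01) and selected reproducible sites with IDR 2.0.3. The deposited replicate lists give fold enrichment (a ratio to Input) and −log10 p and −log10 q values. The deposited list of sites gives a −log10 p and a score scaled from the IDR, with the loosest site at an IDR of 0.01. Its 8 columns of values per replicate were not used, and replicate values were taken from the strongest overlapping peak (at least 1 bp). Depth and therefore precision are unknown.

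Sites and peaks were counted by summit in gene bodies (20162 protein-coding genes, GENCODE 44 on GRCh37) extended by 250 kb. Percentiles among the 200 genes nearest in body length count ties at their midpoint, and body lengths include non-canonical transcripts. The 7 strings were searched as exact letters on both strands of 500 bp centred on the summit. Intervals are 95% Wilson intervals and cover counting error only. No group was compared and no test was run. All 10 genes are described with up to 5 sites each, and a gene with no site with its strongest shared peaks (2 were asked for, SHH had 1). Other genes are named as hosts or nearest TSS, or as the 5 of the pathway list with the most sites, ties by strength. The list counted holds 33 genes, and 1 other gene chosen for it is not reported here. Further genes were named after their values were seen. The genes, lists and strings were chosen with earlier results of these data known. Counting and searching steps were tested on simulated data. Python 3.11.15, numpy 2.4.6, pandas 2.3.3, scipy 1.17.1 and matplotlib 3.10.9 were used.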

Additional observations from a re-analysis of the deposited data

How the results depend on the processing

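No paired analysis was possible because no groups were compared, the Input samples being part of the peak calls only. The number of distinct sites at the genes was 16, and 12 with 100 kb on each side, 30 with 500 kb and 49 with 1 Mb, where the larger window itself adds sites. It was 11 at an IDR of 0.001 or less and 17 when sites were assigned to the nearest canonical TSS. Taking the 5169 strongest peaks of a single replicate gave 17 sites without replicate 1 and 17 without replicate 2. Genes with a site numbered from 7 to 10 over these settings. The TGACAG share ran from 50% in 100 bp (all sites 39.0%) to 81.3% in whole called intervals (all sites 75.2%). Both lie inside the interval of the main value, which is for 500 bp. The share of replicate 1 peaks found in replicate 2 moved from 55.6% to 44.4%, 83.9% and 73.6% under the settings given above (overlap covering 0.5 of the shorter peak: 53.7%). Of 80 values for single genes under another setting, 25 moved, all of them numbers of sites per gene. The 20 percentiles with 100 or 400 genes of like length did not, but all kept the 250 kb window. With other windows percentiles changed, as for GLI3 from 94.5 at 100 kb to 55.5 at 1 Mb. A single replicate decided several numbers of sites. ZIC1 and ZIC4 had 5 sites without replicate 1 and 2 without replicate 2. In the same order ZIC2 had 1 and 0, ZIC5 3 and 1, GLI3 3 and 6, and GLI1 and GLI2 each 1 and 2. PTCH1 had 3 sites from either replicate alone and 3 at an IDR of 0.001 or less. At that IDR ZIC2 and ZIC5 had no site, and GLI1 had none within 100 kb in the main list. The causes were not tested. Peaks near the calling limit cannot be told from noise without read counts, and 16 sites allow wide intervals only.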
